A study of Mus musculus with 23 samples.

Results

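Control wounds of day 7 were compared with control wounds of day 3 in skin of HTNFki/kiLeprdb/db mice aged 8 to 12 weeks, whose Leprdb/db genotype disrupts the leptin receptor and makes them obese and diabetic. All libraries of skin labelled control on these days were taken, 3 per day, which makes 6 of the 23 samples of the series. Of 56379 genes in the count table, 46576 could be placed on an autosome by symbol, and the 21538 of these that passed a filter on low counts were tested. The genes on X and Y were left out because the libraries of the 2 days differ in sex. Mitochondrial genes and 766 tested genes that could not be placed by symbol were not counted either. All of these stayed in the scaling, the fit and the adjustment over 23083 genes.

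The series follows wound healing under adalimumab, an antibody against human TNF, at 20 mg/kg, or under PBS as vehicle, injected under the skin on days 0, 3, 7 and 10. Each mouse received 4 full-thickness dorsal punches of 6 mm that passed through the panniculus carnosus, the thin muscle beneath mouse skin, and 1 dose of tramadol. A punch of 8 mm over the wound was harvested, so each library holds RNA of the wound and of a rim of skin around it. The control groups received PBS and differ by the day of harvest, all groups sharing the genotype, the wounding and the analgesic. The labels number the libraries as biological replicates but do not tie a library to a wound, so p-values measure the spread between these libraries.

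Skin wounds pass from an inflammatory phase, in which neutrophils and then monocytes and macrophages clear the tissue, to a proliferative phase. In the latter, fibroblasts migrate into the provisional matrix, lay down collagen and in part become contractile myofibroblasts, while vessels sprout and keratinocytes close the surface. In mice with the Leprdb/db genotype healing is slow and inflammation lasts long.

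Library totals of the 6 libraries lay between 34752871 and 37494760 counts. The day 3 libraries were female by Xist (24298 to 33598 counts, against 1 to 25 on day 7) and the day 7 libraries male by the Y-linked gene Ddx3y (4047 to 4913 counts, against 0 to 3 on day 3). The column names of the 2 days also follow separate naming series, so sex, cohort and day cannot be told apart in this comparison. Control day 3 replicate 2 stood apart by markers of keratinocytes, adipocytes and endothelium and by its share of mitochondrial counts (15.1%, against 8.09% and 10.4% in the others of that day). Control day 7 replicate 1 stood apart by skeletal muscle genes, whose summed level was 16136 CPM (a gene's counts relative to the scaled total of its library) there and 41 and 65 in the others of that day. Control day 7 replicate 2 also differed from its fellows, with summed levels of 2322 CPM for inflammatory cytokine genes (405 and 849 in the others) and 235 CPM for adipocyte genes (1878 and 2155). Fits without the 2 libraries that stand apart leave out day 3 replicate 2 and day 7 replicate 1 and keep day 7 replicate 2. These are bulk samples, in which fewer cells of a type and less RNA per cell cannot be told apart.

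Between day 3 and day 7, 652 of 21538 autosomal genes changed (3.03%), of which 374 were higher (1.74%) and 278 lower (1.29%) on day 7, by edgeR's quasi-likelihood test with Benjamini-Hochberg adjustment over 23083 genes. The median log2 difference over all genes was -0.02, and the standard error of a gene's difference was 0.41 at the median. The split between directions depended on the procedure: limma voom with library weights called 1275 higher and 1919 lower, and edgeR without the filter on low counts called 271 higher and 89 lower. The number of calls also rested on single libraries. It was 36 without control day 3 replicate 1, 67 without control day 7 replicate 2, 179 without control day 7 replicate 3, 438 without control day 3 replicate 3, 573 without control day 7 replicate 1 and 798 without control day 3 replicate 2. Without day 3 replicate 2 and day 7 replicate 1 together it was 653, of which 371 were among the 652. None of the 652 genes turned sign in any of the 6 fits.

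**Figure D1:**
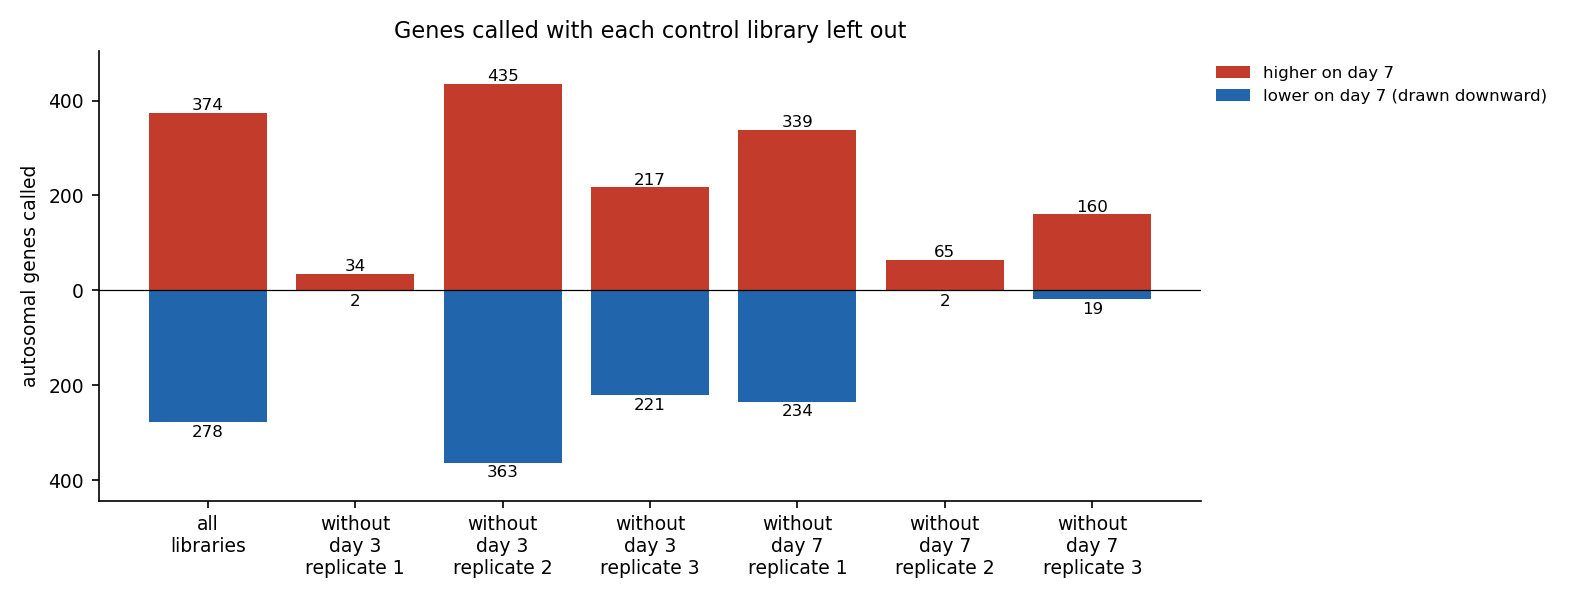
Bars show the number of autosomal genes called by edgeR (adjusted p under 0.05) with all libraries and with each of the 6 control libraries left out, higher on day 7 upward and lower on day 7 downward. Calls fell from 374 higher and 278 lower to 34 and 2 without day 3 replicate 1, and rose to 435 and 363 without day 3 replicate 2.

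Across the 6 fits that each leave out 1 library, 34 genes kept their call, 32 of them higher and 2 lower on day 7. They were singled out after their values were seen and are given as a description. Calls of single genes named hereafter that are not among the 34 ended in at least 1 of the 6 fits, without day 3 replicate 1 or others, and kept their direction. Angptl2, a secreted angiopoietin-like protein, stood at 37, 57.1 and 50.5 CPM on day 3 and at 174, 333 and 169 CPM on day 7, a log2 difference of 2.23 ± 0.28 (SE; edgeR adjusted p = 0.00131). Col27a1, a fibrillar collagen of cartilage and developing tissue, went from 10.1, 13.6 and 15.0 to 47.4, 83.6 and 61.1 CPM. Nrep, a neuronal regeneration gene also found in wound fibroblasts, went from 13.0, 48.2 and 30.9 to 239, 186 and 191 CPM. In each of these genes all day 7 libraries lay above all day 3 libraries.

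The same held for Piezo2, a mechanically gated ion channel, at 3.10, 5.97 and 3.45 CPM on day 3 and 18.2, 27.1 and 19.2 CPM on day 7. Genes for a pair of calcium channel subunits were among the 34: Cacna1c at 13.4, 13.5 and 8.93 against 28.5, 54.9 and 42.3 CPM, and Cacna1g at 1.05, 4.76 and 1.47 against 26.1, 70.4 and 42.3 CPM. Gria1, a glutamate receptor subunit, was near 0 on day 3 (0.0585, 0 and 0.0835 CPM) and at 1.14, 2.21 and 1.64 CPM on day 7. Dnm3os, a noncoding transcript that lies antisense within Dnm3 and hosts microRNAs of the miR-199 and miR-214 families, went from 53.7, 43.7 and 45.6 to 180, 331 and 305 CPM. Without knowledge of the strand setting, its reads and those of Dnm3 cannot be told apart. The 2 lower genes were Psat1 and Slfn1, described with their groups.

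**Figure D2:**
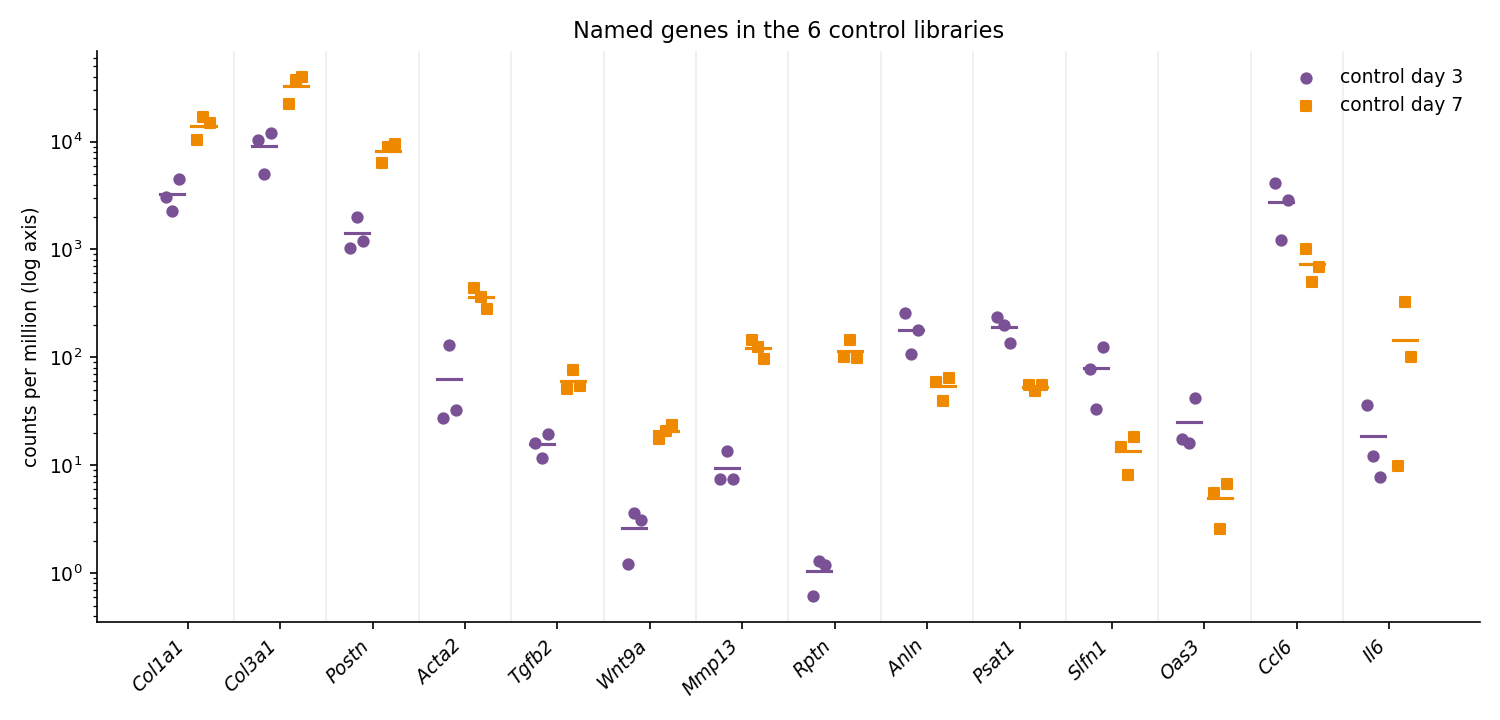
Points show CPM (log axis) of 14 genes in the 3 control day 3 and 3 control day 7 libraries, and bars their means. Col1a1 lay between 2252 and 4483 CPM on day 3 and between 10364 and 16959 CPM on day 7, while the groups overlapped for Il6.

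Of 24 fibrillar and associated collagen genes tested, 14 were higher on day 7 and 0 lower (58.3%, beside 1.74% of all genes), all 24 differences were positive, and their median was 1.78 (-0.02 over all genes). In 18 of the 24 every day 7 library lay above every day 3 library, which held for 12.2% of all genes. Col1a1, a chain of type I collagen, stood at 3045, 2252 and 4483 CPM on day 3 and at 10364, 16959 and 14831 CPM on day 7. All day 7 libraries were higher, 4.31-fold in the fit (log2 2.11 ± 0.48, edgeR adjusted p = 0.027). Its partner Col1a2 rose 4.71-fold, from 4047, 2586 and 5515 to 13381, 22639 and 21231 CPM.

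Col3a1, the type III chain abundant in early scar, stood at 10330, 5038 and 12050 CPM on day 3 and at 22314, 36962 and 39951 CPM on day 7 (3.62-fold, adjusted p = 0.0488). Col5a2, which nucleates type I fibrils, went from 785, 586 and 892 to 2100, 3013 and 2811 CPM (log2 1.81 ± 0.26, adjusted p = 0.00256) and kept its call in all 6 fits. Col12a1, a collagen that bridges fibrils, showed a narrow day 3 range of 220 to 235 CPM and stood at 1350, 1963 and 1117 CPM on day 7 (6.44-fold). The microfibrillar genes Col6a1, Col6a2, Col6a3 and Col6a5 rose by log2 differences of 1.69 to 2.43, and Col24a1 by 3.08 ± 0.51. Genes that did not pass include Col5a3 (0.36 ± 0.42), Col14a1 (1.01 ± 0.71) and Col11a1, which had the largest difference of the list (4.37 ± 1.21, adjusted p = 0.0549).

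The 14 collagen calls became 2 without control day 3 replicate 1, 4 without control day 7 replicate 2 and 8 without control day 7 replicate 3, and 9 without the 2 libraries that stand apart. The log2 differences of Col1a1 stayed between 1.90 and 2.41 in the 6 fits and those of Col3a1 between 1.56 and 2.11. The calls of Col1a1 and Col1a2 each ended on leaving out any 1 of day 3 replicates 1 and 2 and day 7 replicates 2 and 3, and that of Col3a1 also without day 3 replicate 3. The list's summed level was 20829, 12934 and 26047 CPM on day 3 and 56488, 89606 and 87063 CPM on day 7. It lay between 1942 and 6507 CPM on day 0 and between 83849 and 92377 CPM on day 10.

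Enzymes and chaperones that fold, trim and cross-link collagen rose in part. Of 24 tested, 9 were higher (37.5%, beside 1.74% of all genes) and 0 lower, with a median log2 difference of 0.85. Among the prolyl hydroxylases, P4ha2 (1.68 ± 0.37) and P3h3 (1.76 ± 0.32) rose, while P4ha1 did not pass (1.09 ± 0.32, adjusted p = 0.0655). Serpinh1, the collagen chaperone HSP47, went from 622, 454 and 785 to 958, 1132 and 1072 CPM, a log2 difference of 0.76 ± 0.18. The propeptidases Bmp1 (1.33 ± 0.28) and Adamts2 (1.59 ± 0.32) rose, as did the propeptidase enhancer Pcolce (1.42 ± 0.34). The cross-linking lysyl oxidases did not pass: Lox stood at 1515, 901 and 1311 CPM on day 3 and 1517, 2162 and 2577 CPM on day 7 (0.75 ± 0.43), and Loxl1 to Loxl4 had differences from -0.42 to 0.78. The 9 calls became 0 without day 3 replicate 1, 1 without day 7 replicate 2 and 5 without day 7 replicate 3.

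The matrix that surrounds the fibrils changed in part. Of 26 genes of provisional and granulation matrix, 7 were higher (26.9%, beside 1.74% of all genes) and 0 lower (median 1.09). Postn, the matricellular periostin, stood at 1036, 2001 and 1203 CPM on day 3 and at 6292, 8996 and 9496 CPM on day 7 (5.85-fold, adjusted p = 0.00616). Its call ended only without day 3 replicate 1 (adjusted p = 0.0644), with log2 differences of 2.37 to 2.88 in the 6 fits. The small leucine-rich proteoglycans Aspn (7.12-fold) and Lum (1.64 ± 0.41) and the microfibril proteins Mfap2 (2.45 ± 0.49) and Mfap4 (4.52 ± 0.95) rose. Mfap4 went from 1.17, 11.7 and 3.20 to 125, 175 and 69.8 CPM.

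Core genes of the early provisional matrix were already expressed on day 3 and did not pass. Fn1, fibronectin, stood at 2234, 708 and 1631 CPM on day 3 and at 2566, 2183 and 2719 CPM on day 7 (0.71 ± 0.52), and Vcan and Thbs1 differed by -0.28 ± 0.58 and 0.22 ± 0.98. Tnc, tenascin C, reached 4231 CPM in day 7 replicate 2 against 250 to 803 CPM on day 3 but was variable (2.14 ± 0.74, adjusted p = 0.111). Fbn1, fibrillin 1, had a negative difference (-0.75 ± 0.61). The 7 calls became 0 without day 3 replicate 1, 2 without day 7 replicate 2, 4 without day 7 replicate 3 and 3 without the 2 libraries that stand apart.

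**Figure D3:**
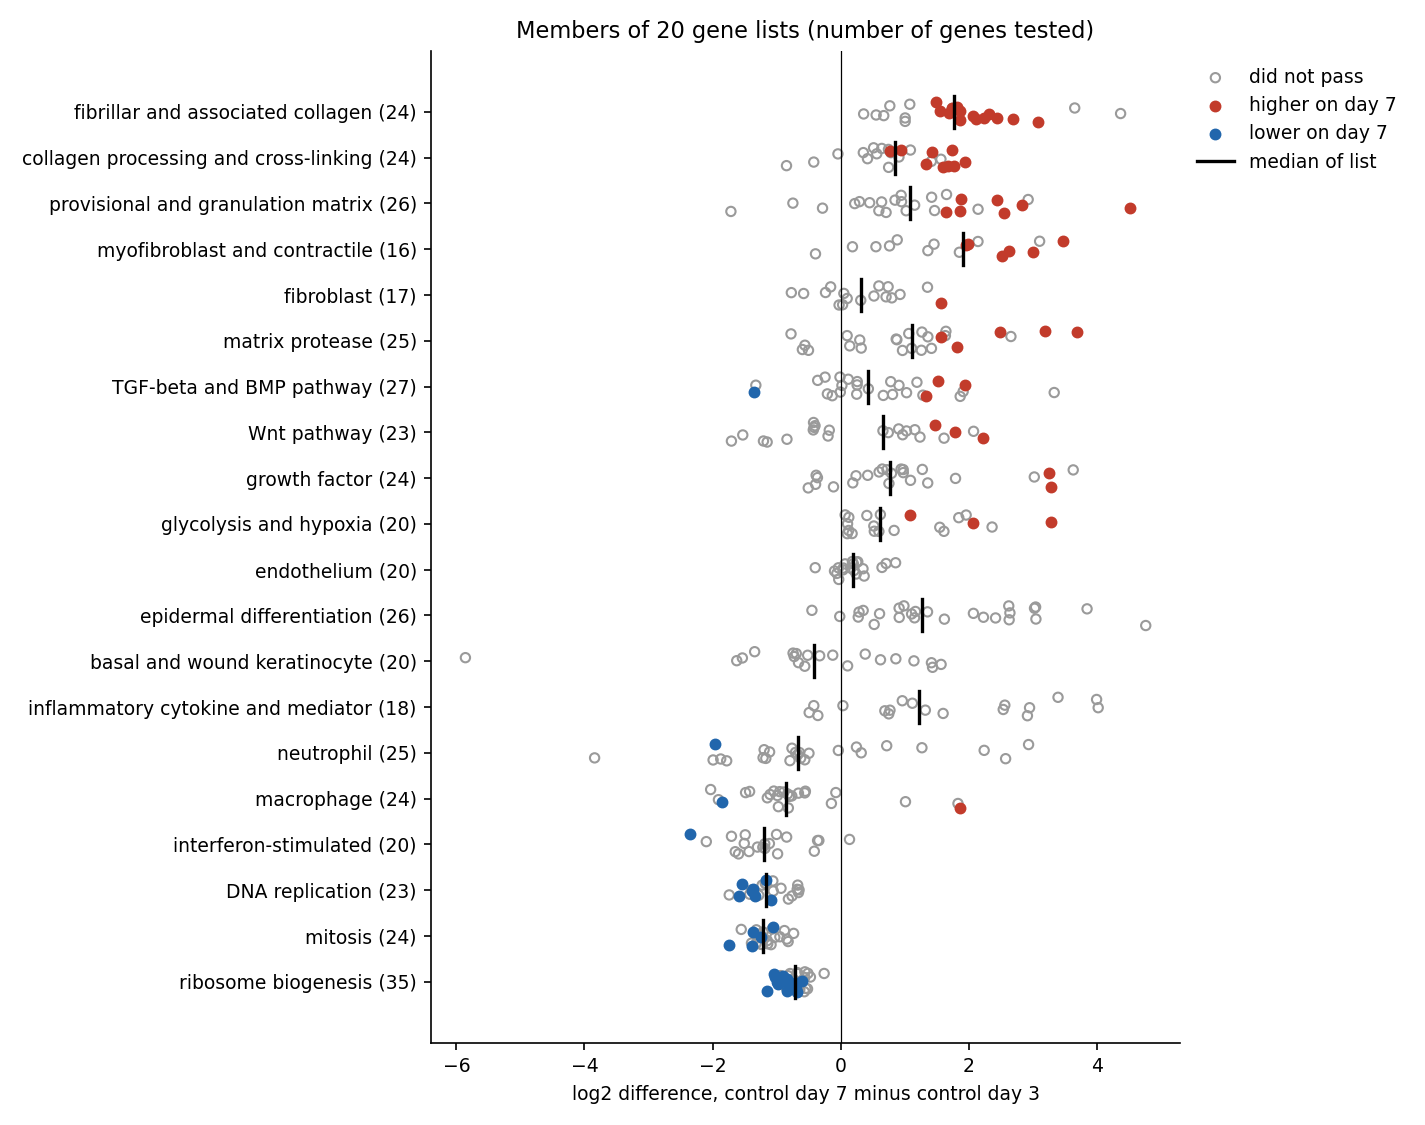
Each point is the log2 difference (day 7 minus day 3) of 1 autosomal gene in 20 gene lists, filled where edgeR's adjusted p was under 0.05, with the number of genes tested in brackets and a bar at each list's median. The medians run from 1.90 in the myofibroblast and contractile list and 1.78 in the collagens to -1.21 in the mitosis list.

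Of 17 general fibroblast markers tested, 1 rose (5.88%, beside 1.74% of all genes). It was Pdgfrb, a receptor of fibroblasts and pericytes (1.57 ± 0.36). Its call ended on leaving out any 1 of day 3 replicates 1 and 3 and day 7 replicates 1 and 2. Pdgfra, which marks dermal fibroblasts, stood at 288, 169 and 287 CPM on day 3 and at 336, 363 and 365 CPM on day 7 (0.52 ± 0.40). The summed level of the list was 5181, 2861 and 6067 CPM on day 3 and 4901, 4660 and 5730 CPM on day 7. These ranges overlap, and the list's median difference was 0.31.

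Some genes of the contractile apparatus and of activated wound fibroblasts rose. Of 16 tested, 6 were higher (37.5%, beside 1.74% of all genes) and 0 lower, with a median of 1.90. In 11 genes every day 7 library lay above every day 3 library, which held for 12.2% of all genes. Acta2, the smooth muscle actin that marks myofibroblasts, stood at 27.2, 129 and 32.1 CPM on day 3 and at 440, 363 and 279 CPM on day 7 (5.74-fold, adjusted p = 0.0134). Itga11, the collagen-binding integrin chain of myofibroblasts, rose 11.0-fold from 0.527, 2.64 and 2.92 to 25.2, 28.6 and 13.5 CPM. Actg2 (3.00 ± 0.67), Myl9 (1.95 ± 0.46), Tagln (1.99 ± 0.46) and Ncam1 (2.62 ± 0.48) also rose. Pericytes and vascular smooth muscle share part of these genes. Myh11, of mature smooth muscle, overlapped between the days at 7.11, 29.8 and 2.31 against 18.4, 6.46 and 4.93 CPM, and Tpm1, Tpm2 and Des peaked in day 7 replicate 1, the library with skeletal muscle.

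The 6 calls became 0 without day 3 replicate 1, 3 without day 3 replicate 3 and 2 without day 7 replicate 2. Those of Acta2 and Ncam1 ended only in the first of these fits, where Acta2 had an adjusted p of 0.0827. Among other integrin alpha chains, a list put together after values were seen, Itga10 rose (1.83 ± 0.36) and no other member of 18 tested passed besides Itga11. These 2 make 11.1% of the list, beside 1.74% of all genes, which does not support a direction in a list so made. Neither call was made without day 3 replicate 1 or without day 7 replicate 2.

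Ligands of the TGF-beta family, which drive matrix production in fibroblasts, moved apart. Tgfb2 rose from 15.9, 11.6 and 19.6 to 50.8, 76.6 and 53.7 CPM, a log2 difference of 1.94 ± 0.25 (adjusted p = 0.00131), and kept its call in all 6 fits. Tgfb3 rose by 1.52 ± 0.37, and Tgfb1, the platelet and macrophage form, did not pass (-0.36 ± 0.30). Bmp2, a bone morphogenetic protein, fell from 9.31, 15.4 and 11.4 to 4.96, 4.19 and 4.99 CPM, but this call (adjusted p = 0.0463) was lost in all 6 fits. Receptors and intracellular transducers, among them Tgfbr1, Tgfbr2, Smad2, Smad3 and Smad4, did not pass and lay between -0.21 and 0.66. Ccn2, a classical target, did not pass either (-0.01 ± 0.31). In all, 3 of 27 genes of the pathway were higher (11.1%, beside 1.74% of all genes) and 1 lower (3.7%, beside 1.29%). Tgfb2 was the only call left without day 3 replicate 1 or day 7 replicate 2.

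Of 23 Wnt pathway genes, 3 were higher (13.0%, beside 1.74% of all genes) and 0 lower. Wnt5a, a ligand of the noncanonical branch, rose 4.66-fold from 15.8, 24.2 and 17.1 to 77.6, 127 and 61.3 CPM. The receptor Fzd1 (1.47 ± 0.25) and the secreted modulator Dkk3 (1.78 ± 0.32) rose as well. All 3 calls were lost without day 3 replicate 1. Wnt9a, counted in a list of all Wnt ligands put together after values were seen, stood at 1.20, 3.63 and 3.09 CPM on day 3 and at 17.3, 20.7 and 23.6 CPM on day 7 (2.96 ± 0.38) and was among the 34 genes called in every fit. The epidermal ligands Wnt4, Wnt7b and Wnt10a did not pass, and each was highest in day 3 replicate 2 (30.7, 5.94 and 10.8 CPM). Without that library 20 differences of the Wnt pathway list were positive and 3 negative, against 12 and 11 with it. Axin2, a target of canonical signalling, did not pass (0.97 ± 0.43).

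Of 24 growth factor genes, 2 were higher (8.33%, beside 1.74% of all genes). Mdk, the heparin-binding midkine, went from 0.790, 1.29 and 0.862 to 9.06, 12.0 and 7.14 CPM (3.26 ± 0.46, adjusted p = 0.00194) and was called in every fit. Vegfa, the main driver of vessel sprouting, stood at 41.1, 40.2 and 25.8 CPM on day 3 and at 104, 672 and 262 CPM on day 7 (9.69-fold, adjusted p = 0.0293). All day 7 libraries were higher, but they spanned a wide range with replicate 2 on top. The call of Vegfa remained only without day 7 replicate 1, and its difference was 2.41 without day 7 replicate 2. The keratinocyte growth factor Fgf7 (0.97 ± 0.70) and Igf1 (0.98 ± 0.51) did not pass.

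Vegfa, Bnip3 (a mitophagy receptor induced by low oxygen, 2.07 ± 0.51) and Pdk1 (a kinase that diverts pyruvate from mitochondria, 1.09 ± 0.29) were the 3 higher genes of 20 on glycolysis and hypoxia, 0 being lower. The 3 higher genes make 15% of the list, beside 1.74% of all genes. All 20 differences were positive, with a median of 0.61. Bnip3 stood at 35.1, 38.1 and 34.1 CPM on day 3 and at 76.6, 198 and 175 CPM on day 7. No glycolytic enzyme passed, with differences from 0.07 for Eno1 and 0.11 for Gapdh to 0.52 for Tpi1 and Hk2 and 0.60 for Pfkl. All 3 calls of the list were lost in 5 of the 6 fits, the exception being that without day 7 replicate 1.

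Endothelial markers did not pass. Of 20 tested, 0 were called by edgeR or DESeq2 and 0 had an unadjusted p under 0.05, with a median of 0.19, and the summed level was 114, 854 and 220 CPM on day 3 and 567, 479 and 311 CPM on day 7. Pecam1, a defining marker, stood at 10.9, 121 and 18.6 CPM on day 3 and at 66.9, 58.8 and 29.3 CPM on day 7. Day 3 replicate 2 was above all day 7 libraries in this sum, and without it the median was 1.81. Among 10 pericyte markers, Kcnj8 (2.07 ± 0.49) and Ndufa4l2 (2.94 ± 0.72) rose (20%, beside 1.74% of all genes). The median of these markers moved from 1.09 to 2.49 without day 3 replicate 2, when 5 were called. None was called without day 3 replicate 1, day 3 replicate 3, day 7 replicate 2 or day 7 replicate 3.

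Several proteases that cut matrix rose. Of 25 matrix proteases, 5 were higher (20%, beside 1.74% of all genes) and 0 lower (median 1.11). Mmp13, the main interstitial collagenase of rodents, stood at 7.43, 13.5 and 7.51 CPM on day 3 and at 145, 126 and 95.8 CPM on day 7 (3.69 ± 0.85, adjusted p = 0.0284). Mmp14, the membrane-bound collagenase, went from 213, 150 and 226 to 569, 720 and 449 CPM and was called in every fit (1.56 ± 0.26). Mmp11, stromelysin 3, rose 9.11-fold, and Mmp3 (2.49 ± 0.61) and the acid collagenase gene Ctsk (1.82 ± 0.42) also rose. Without day 3 replicate 1 or without day 7 replicate 2 only 1 call was left, without day 3 replicate 3 or day 7 replicate 3 it was 2, and without the 2 libraries that stand apart 3.

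Among 13 genes listed under protease inhibitors and the plasminogen system, 2 rose (15.4%, beside 1.74% of all genes). A2m, the broad inhibitor alpha-2-macroglobulin, was near 0 on day 3 (0.146, 0 and 0.0278 CPM) and stood at 8.35, 13.5 and 18.0 CPM on day 7 and 20.2 CPM on average on day 10. Its call was made in every fit (7.79 ± 1.10), but with so few reads on day 3 the size of the difference depends on the prior count of the fit. Serpinf1, a serpin that inhibits vessel growth and not proteases, rose by 1.34 ± 0.31. Its call was lost without day 3 replicates 1 or 2 or day 7 replicates 2 or 3. Timp2, Timp3, Plau, Plaur and Plat did not pass.

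The 15 largest rises were taken among called genes whose mean log2 CPM reached 1 and whose groups did not overlap. Rptn, the cornified envelope protein repetin, stood at 0.615, 1.29 and 1.20 CPM on day 3 and at 99.7, 144 and 98.1 CPM on day 7 (110-fold in the fit, adjusted p = 0.0284) and at 207 CPM on average on day 10. Its call was lost in 5 of the 6 fits, although the log2 difference stayed between 6.52 and 6.97. C1qtnf3, a secreted C1q-like protein, went from 1.35, 25.1 and 7.54 to 250, 350 and 222 CPM (4.59 ± 1.10). Tnn, tenascin N, went from 8.37, 18.4 and 8.51 to 137, 386 and 201 CPM (4.36 ± 0.86). In these 3 genes no day 7 library came near the day 3 range.

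Prokr2, a receptor of prokineticins, rose from 2.02, 0.726 and 1.08 to 9.31, 51.5 and 25.0 CPM, and Stra6, the retinol uptake receptor, from 0.644, 0.323 and 0.223 to 12.3, 11.8 and 6.52 CPM. The others of the 15 were Brinp3, Cacna1g, Kif26b, Slc9b2, Edil3, Pdgfrl, Itgbl1, Mfap4, Mmp13 and Ppp1r3c, with log2 differences of 3.47 to 4.52. Ppp1r3c, a glycogen-targeting subunit of protein phosphatase 1, is the one that rested on a single library: it stood at 2.87, 4.44 and 1.11 CPM on day 3 and at 116, 6.08 and 5.29 CPM on day 7. The high value is that of day 7 replicate 1, and the difference was 1.02 without it. Calls that ended only without day 3 replicate 1 were those of Brinp3 and Slc9b2, while those of Cacna1g, Edil3 and Pdgfrl never ended.

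Mitosis genes were lower in every day 7 library than in any day 3 library. Of 24 mitosis genes, 5 were lower and 0 higher (20.8%, beside 1.29% of all genes). All 24 differences were negative, between -1.74 and -0.74, and in all 24 every day 7 library lay below every day 3 library, which held for 13.2% of all genes. Anln, the contractile ring scaffold anillin, stood at 256, 106 and 179 CPM on day 3 and at 58.5, 39.7 and 63.8 CPM on day 7 (3.34-fold lower, adjusted p = 0.00649). Cdc20, the activator of the anaphase-promoting complex, fell from 51.9, 37.2 and 39.2 to 16.9, 18.5 and 14.1 CPM (2.59-fold). Ube2c, the ubiquitin-conjugating enzyme of the same complex, fell from 59.6, 42.5 and 43.9 to 23.5, 22.8 and 24 CPM. Aurkb (-1.25 ± 0.32) and Tpx2 (-1.38 ± 0.36) were the other calls.

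Mki67, the usual proliferation marker, stood at 327, 293 and 289 CPM on day 3 and at 192, 134 and 188 CPM on day 7, without passing (-0.82 ± 0.39, adjusted p = 0.237). The summed level of the list was 2406, 1696 and 1800 CPM on day 3, 1001, 730 and 940 CPM on day 7 and 377 to 484 CPM on day 0. The 5 calls became 0 without day 3 replicate 1 or day 7 replicate 2, 1 without day 3 replicate 3 or day 7 replicate 3, and 2 without day 7 replicate 1 or without the 2 libraries that stand apart. That of Anln ended only in the first 2 of these fits, and that of Aurkb in all 6.

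Of 23 DNA replication genes, 7 were lower (30.4%, beside 1.29% of all genes) and 0 higher (median -1.17). Gins2, of the replicative helicase, fell from 16.1, 12.4 and 13.5 to 5.84, 4.13 and 3.96 CPM (-1.59 ± 0.29, adjusted p = 0.00966). Uhrf1, which keeps DNA methylation through replication, fell from 88.1, 72.3 and 70.3 to 31.9, 19.3 and 27.9 CPM (2.92-fold, adjusted p = 0.0376). Mcm2, Mcm4, Rrm1, Tyms and Tk1 were the other calls, by -1.09 to -1.38. In 22 of the 23 genes every day 7 library lay below every day 3 library, which held for 13.2% of all genes. No call of the list was made without day 3 replicate 1, day 7 replicate 2 or day 7 replicate 3, there were 3 without day 3 replicate 3, and 4 without day 3 replicate 2 or without the 2 libraries that stand apart.

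Promoters of these genes are shown because members of both lists moved together. The 250 bases before each gene's start were taken from RefSeq (build GRCm38.p6) and searched on both strands, and a gene counts as holding a motif where any of its windows does. The E2F motif, written TTTCCCGC, TTTGGCGC or TTTCGCGC, lay in 6 of 19 DNA replication genes (31.6%), beside 2.76% of 13750 autosomal genes tested and 1.78% of 27025 genes in the reference. The cell cycle homology region, TTTGAA, lay in 8 of 20 mitosis genes (40%, beside 14.3% of the genes tested and 18.3% of all) and CCAAT in 17 of 20 (85%, beside 39% and 37.5%). None of these motifs contains another. Among the genes lower on day 7 the shares were 5.48% for E2F, 20.1% for the cell cycle homology region and 47% for CCAAT. The windows of the called genes Tk1, Tyms and Rrm1 and another window of Uhrf1 held no E2F match. That of Anln held no cell cycle homology region. The windows printed here all hold a match. Other motifs were searched for other lists. The CArG motif (CC, a run of A or T, GG) lay in 2 of 11 myofibroblast and contractile genes (18.2%, beside 1.52% of the genes tested). The window of Acta2 held none. The motif TGATGNAA lay in 1 of 18 one-carbon genes (5.56%, beside 2.67% of the genes tested), and in no window of Psat1 or Phgdh. A match describes the letters and not a bound site. The share of a list depends on which genes were listed and not on their levels here, so it does not bear on the change. Below, capitals mark an E2F match in Uhrf1 (plus strand), which starts 185 bases before the gene's start, and matches to the cell cycle homology region in Cdc20 (minus strand, 18 bases before) and, as the reverse complement TTCAAA, in Ube2c (plus strand, 29 bases before).
Uhrf1, chr17:56304063-56304312: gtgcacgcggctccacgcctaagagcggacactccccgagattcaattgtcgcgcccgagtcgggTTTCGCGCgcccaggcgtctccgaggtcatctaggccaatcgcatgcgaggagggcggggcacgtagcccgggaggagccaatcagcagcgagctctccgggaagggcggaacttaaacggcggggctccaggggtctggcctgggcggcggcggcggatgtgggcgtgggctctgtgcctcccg
Cdc20, chr4:118437344-118437593: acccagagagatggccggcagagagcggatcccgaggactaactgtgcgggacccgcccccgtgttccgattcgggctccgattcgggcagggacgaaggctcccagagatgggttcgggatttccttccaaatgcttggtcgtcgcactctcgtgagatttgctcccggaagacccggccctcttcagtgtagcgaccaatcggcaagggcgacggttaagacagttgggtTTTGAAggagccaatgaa
Ube2c, chr2:164769679-164769928: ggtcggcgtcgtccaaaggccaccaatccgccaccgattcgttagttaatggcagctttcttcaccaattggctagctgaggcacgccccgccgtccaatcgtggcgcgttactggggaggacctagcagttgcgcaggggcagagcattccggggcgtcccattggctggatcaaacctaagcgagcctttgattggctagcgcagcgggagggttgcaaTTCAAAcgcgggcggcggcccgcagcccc

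Ribosome biogenesis, one-carbon, nuclear pore, nuclear transport and chaperonin genes were listed after values were seen and in part from called genes, so that their counts do not support a direction. Of 35 ribosome biogenesis genes, 16 were lower (45.7%, beside 1.29% of all genes) and 0 higher. All 35 differences were negative and the median was -0.71. Tcof1, the nucleolar treacle protein, fell by 1.15 on the log2 scale, and Fbl, Utp20, Wdr12 and Pes1 fell by 0.81 to 1.02. Of 21 genes of serine, glycine and one-carbon metabolism, 9 were lower (42.9%, beside 1.29% of all genes) and 0 higher (median -0.93). Psat1, the aminotransferase of serine synthesis, stood at 236, 201 and 135 CPM on day 3 and at 55.7, 48.4 and 55.6 CPM on day 7 (-1.84 ± 0.25, adjusted p = 0.00141) and was called in every fit. Phgdh (-1.57 ± 0.39), Shmt1 (-1.92 ± 0.43), Mthfd1 (-1.33 ± 0.24) and the amino acid transporter Slc7a5 (-1.91 ± 0.38) fell too.

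Nuclear pore genes were lower in 7 of 26 (26.9%) and nuclear transport genes in 6 of 24 (25%), none being higher. Of 8 subunits of the cytosolic chaperonin, 3 were lower (37.5%), with all 8 between -0.50 and -0.78. Of all genes 1.29% were lower. Rcc1, which loads the GTPase Ran, stood at 93.1, 59.1 and 69.5 CPM on day 3 and at 34.1 CPM in each day 7 library (-1.12 ± 0.21, adjusted p = 0.0109). The median differences were -0.58 for nuclear pore, -0.47 for nuclear transport and -0.68 for chaperonin genes. Without day 3 replicate 1 or without day 7 replicate 2 the calls were 0 for ribosome biogenesis, nuclear pore, nuclear transport and the chaperonin and 1 for one-carbon metabolism. Without day 7 replicate 3 they were 0, 0, 1, 0 and 1 in the same order. Ribosome biogenesis had 7 lower genes without day 7 replicate 1, nuclear transport 3 and the chaperonin 0.

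Among called genes chosen in the same way, the 3 largest falls were those of the lipid synthesis genes Elovl3, Elovl6 and Far2. Of 18 genes of fatty acid synthesis and elongation, a list put together after values were seen, 6 were lower and 0 higher. The 6 make 33.3% of that list, beside 1.29% of all genes, which does not support a direction in a list so made. Elovl6, which elongates palmitate, stood at 392, 1042 and 72.8 CPM on day 3 and at 19.4, 15.7 and 28.4 CPM on day 7 (-4.57 ± 1.09, adjusted p = 0.0322). Elovl3, an elongase of sebaceous glands and hair follicles, went from 68.4, 230 and 7.62 to 0.655, 0.958 and 2.73 CPM (70.3-fold lower, adjusted p = 0.0392). Far2, which makes the fatty alcohols of wax esters, fell by 4.45 on the log2 scale. Day 3 replicate 2 was highest and day 3 replicate 3 lowest of its day in all 3, and all day 7 libraries were lower.

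Of 10 autosomal sebaceous markers, Elovl3 and Far2 were lower (20%, beside 1.29% of all genes) and the others did not pass. Left out as X-linked were Awat1 (-6.15 ± 1.44), Awat2 (-4.10 ± 0.90) and Dgat2l6 (-4.55 ± 1.31), all with negative differences. Their edgeR adjusted p were 0.0302, 0.0235 and 0.0642. Scd1, a fatty acid desaturase of sebocytes and adipocytes, stood at 776, 3091 and 141 CPM on day 3 and at 242, 81.8 and 794 CPM on day 7 and thus overlapped. The summed sebaceous level was 1282, 4192 and 371 CPM against 438, 306 and 1027 CPM, and the part of sebaceous tissue in these falls was not tested. The calls of Elovl3, Elovl6 and Far2 remained only without day 3 replicate 3, where 2 sebaceous and 6 lipid genes were lower. Without any other single library no autosomal sebaceous gene and at most 1 lipid gene was lower.

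The 15 genes with the largest falls also held neuronal and interferon-related genes. Nefl, a neurofilament, Nrcam, a neuronal adhesion molecule, and Uchl1, a neuronal ubiquitin hydrolase, fell by 2.79, 3.10 and 2.11 on the log2 scale. Slfn1, of the Schlafen family of interferon-regulated leukocyte genes, stood at 77.4, 33.5 and 126 CPM on day 3 and at 14.8, 8.14 and 18.1 CPM on day 7 (-2.53 ± 0.42, adjusted p = 0.00615) and was called in every fit. The other 6 Schlafen genes tested did not pass, with differences from -2.09 to -0.25. Ms4a4c, of inflammatory monocytes, went from 34.6, 46.4 and 173 to 14.8, 7.24 and 19.7 CPM, and its call ended in every fit but that without day 3 replicate 2. Btnl2, Ifi208, Ifi209, Oas3, Paqr7, Slc35g1 and Pctp completed the 15 with Elovl3, Elovl6 and Far2.

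Interferon-stimulated genes mostly had lower levels on day 7, of which few passed. Of 20 tested, 1 was lower (5%, beside 1.29% of all genes) and 0 higher. It was Oas3, an oligoadenylate synthetase that senses double-stranded RNA. Its levels went from 17.3, 16.1 and 41.5 to 5.47, 2.57 and 6.70 CPM (-2.35 ± 0.59, edgeR adjusted p = 0.0392). Of the rest, 18 differences were negative and the median was -1.20. In 10 of the 20 every day 7 library lay below every day 3 library, which held for 13.2% of all genes. Among them was Mx1 at 44.5, 47.1 and 101 against 13.3, 10.0 and 21.6 CPM (-2.10 ± 0.62, edgeR adjusted p = 0.069). The summed level was 856, 909 and 1879 CPM on day 3 and 520, 304 and 747 CPM on day 7, and so stayed above the 163 to 198 CPM of day 0. Of 12 genes of the interferon-inducible p200 family, listed after values were seen, Ifi208 and Ifi209 were lower (16.7%, beside 1.29% of all genes). In a list so made this share does not support a direction. Reads of these near-identical copies may be split between them. The calls of Oas3, Ifi208 and Ifi209 were lost in 5 of the 6 fits, all but that without day 3 replicate 2.

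The interferon-stimulated response element, written GAAA, NN for any 2 bases and GAAA again, searched on both strands, lay in 9 of 15 genes of the list with a promoter window (60%), beside 3.39% of the genes tested and 3.46% of all. It lay in 1.83% of the genes that fell. The share of the list depends on which genes were listed and not on their levels here, so it does not bear on the change. The window of Oas3 (minus strand) is shown because it is the one that passed, with the match in capitals, 75 bases before the gene's start.
Oas3, chr5:120777660-120777909: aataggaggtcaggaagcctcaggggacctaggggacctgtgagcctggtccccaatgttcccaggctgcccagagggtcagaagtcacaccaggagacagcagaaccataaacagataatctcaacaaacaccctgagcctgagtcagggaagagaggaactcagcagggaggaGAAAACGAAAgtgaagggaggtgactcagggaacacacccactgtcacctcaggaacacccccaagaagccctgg

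Most macrophage and monocyte genes did not pass. Of 24 macrophage markers, 1 was lower (4.17%, beside 1.29% of all genes) and 1 higher (4.17%, beside 1.74%). Cbr2, of resident dermal macrophages, fell from 212, 105 and 369 to 85.4, 44.5 and 59.7 CPM (-1.85 ± 0.44, edgeR adjusted p = 0.0312). Spp1, osteopontin, rose from 338, 345 and 291 to 1741, 636 and 1165 CPM (3.64-fold, edgeR adjusted p = 0.0128). Fibroblasts and other cells also make Spp1. The defining markers Adgre1 (-0.95 ± 0.75), Csf1r (-1.15 ± 0.63) and Mrc1 (-1.04 ± 0.41) did not pass, and 21 of the 24 differences were negative (median -0.86). Ccr2, the receptor of recruited monocytes, stood at 339, 224 and 812 CPM on day 3 and at 124, 39.9 and 120 CPM on day 7 (-2.28 ± 0.69, adjusted p = 0.0767). Arg1, an arginase of repair macrophages, did not pass (0.15 ± 0.59), with day 3 replicate 1 at 348 CPM and the other 5 libraries between 98.2 and 221 CPM. Ms4a4c was the 1 call among 14 inflammatory monocyte genes (7.14% lower, beside 1.29% of all genes).

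Of 9 monocyte-attracting chemokines, Ccl6 and Ccl9 were lower (22.2%, beside 1.29% of all genes) and 0 higher. Ccl6 stood at 4094, 1225 and 2889 CPM on day 3 and at 1018, 499 and 691 CPM on day 7 (3.72-fold lower, adjusted p = 0.0385), and Ccl9 fell by 1.69 on the log2 scale. Ccl2, the main ligand of Ccr2, did not pass (-0.68 ± 0.66). The call of Ccl6 ended without day 3 replicate 1 or 3 or without day 7 replicate 2 or 3, and that of Ccl9 remained only without day 3 replicate 2. The call of Spp1 ended without day 3 replicate 1 (adjusted p = 0.0777), and that of Cbr2 without day 3 replicates 1 or 3 or day 7 replicates 2 or 3.

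**Figure D4:**
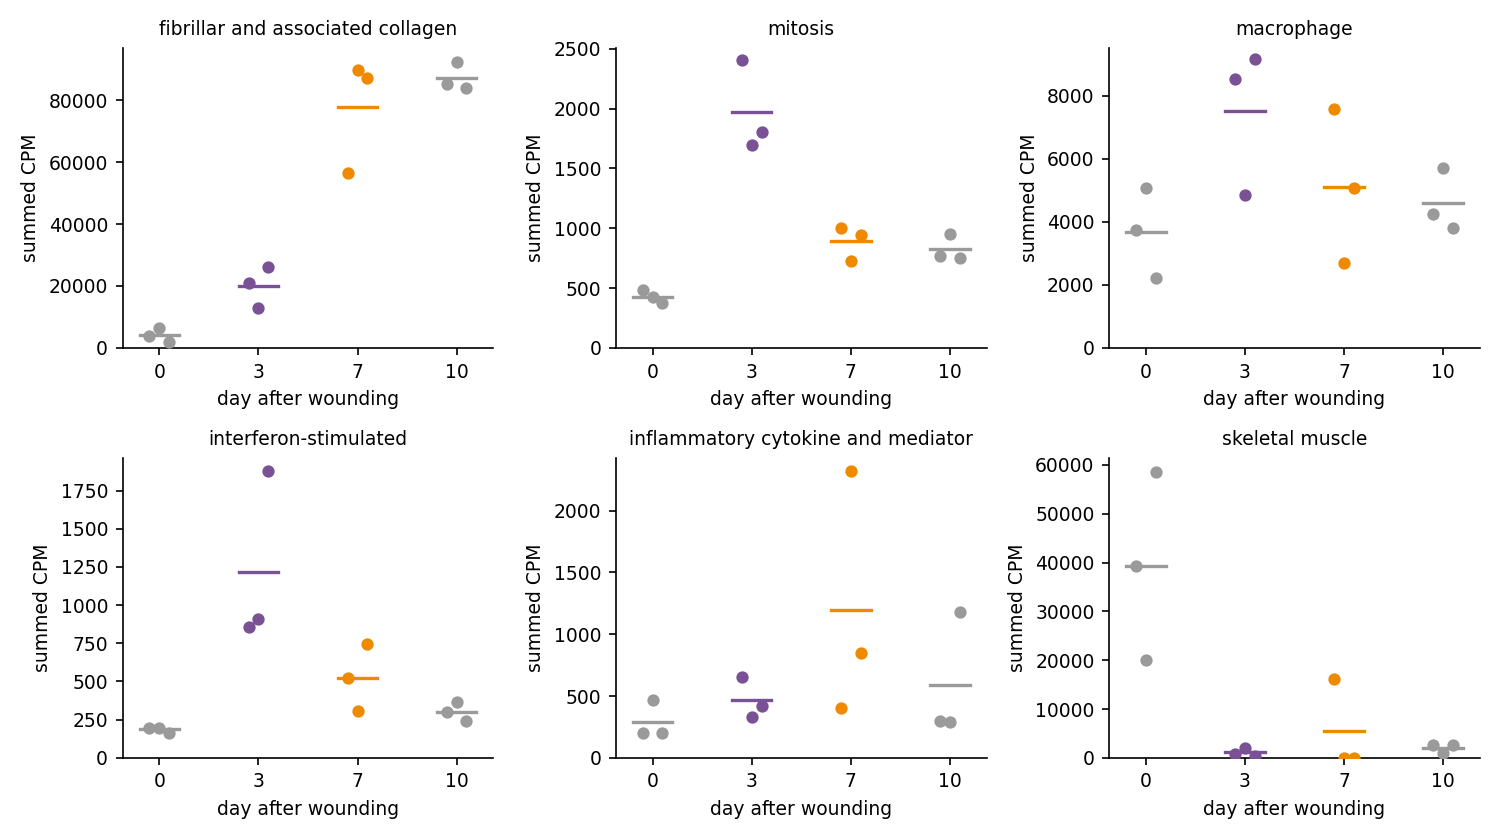
Points show the summed CPM of 6 gene lists in each control library on days 0, 3, 7 and 10 (3 libraries a day), with bars at the means and axes from 0. The collagen sum lay between 12934 and 26047 on day 3 and between 56488 and 89606 on day 7, the mitosis sum between 1696 and 2406 on day 3 and between 730 and 1001 on day 7, and the skeletal muscle sum was 16136 in a single day 7 library.

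Neutrophil genes did not move one way. Of 25 tested, 1 was lower (4%, beside 1.29% of all genes) and 0 higher. It was Fpr2, a formyl peptide receptor (15.2, 9.92 and 15.9 against 4.41, 3.14 and 3.00 CPM, edgeR adjusted p = 0.0299). S100a8, a calgranulin of neutrophils and also of wound keratinocytes, stood at 26.4, 140 and 32.6 CPM on day 3 and at 422, 732 and 366 CPM on day 7, without passing (2.93 ± 0.86, adjusted p = 0.0667). Ly6g, the defining surface marker, was at or below 0.223 CPM in all 6 libraries. The call of Fpr2 ended without day 3 replicates 1 or 3 or day 7 replicates 2 or 3.

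Inflammatory cytokines did not pass in either direction. Of 18 tested edgeR called 0, with 3 higher and 0 lower at an unadjusted p under 0.05 and 1 higher in DESeq2, and the median difference was 1.22. Il6 stood at 36.4, 12.2 and 7.71 CPM on day 3 and at 9.91, 324 and 101 CPM on day 7 (2.95 ± 1.68, adjusted p = 0.333), so that day 7 replicate 1 lay within the day 3 range and replicate 2 far above it. Ptgs2 and Nos2, the inducible prostaglandin and nitric oxide synthases, showed the same order, with 714 and 222 CPM in day 7 replicate 2 against at most 82.6 and 13.5 CPM on day 3. Il1b and the neutrophil chemokine Cxcl2 did not pass either (0.77 ± 1.14 and 0.99 ± 1.33), and both were highest in day 7 replicate 2, at 36.8 and 53.9 CPM. The summed level was 655, 328 and 422 CPM on day 3 and 405, 2322 and 849 CPM on day 7, and without day 7 replicate 2 the median was 0.41. For the neutrophil-attracting chemokines, with 0 of 5 called by edgeR or DESeq2 and 1 lower at an unadjusted p under 0.05, the median went from 0.87 to -0.10 without that library. Tnf, the mouse gene as the table names it, stood at 0.484 to 0.969 CPM in all 6 libraries (0.03 ± 0.69), and human TNF transcripts were not analysed here.

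No gene of the epidermal lists passed in edgeR (Rptn, described above, is in neither). Of 26 differentiation genes 0 passed in edgeR, with 7 higher at an unadjusted p under 0.05 and 2 higher in DESeq2, and 24 differences were positive (median 1.26). Flg, filaggrin, stood at 2.90, 11.6 and 1.92 CPM on day 3 and at 185, 87.1 and 174 CPM on day 7 (4.76 ± 1.39, adjusted p = 0.0663), and Klk7, a protease of the cornified layer, at 8.05, 41.3 and 10.8 against 255, 130 and 112 CPM (3.05 ± 1.24). In 12 of the 26 all day 7 libraries were above all day 3 libraries, which held for 12.2% of all genes. Krt14, of basal keratinocytes, stood at 374, 1672 and 153 CPM on day 3 and at 680, 505 and 207 CPM on day 7, and Krt6a, a keratin of wound edges, at 82.6, 443 and 72.0 against 567, 316 and 201 CPM. In both the groups overlapped through day 3 replicate 2. Krt15, another basal keratin, did not pass either, but its groups did not overlap. It had 3860, 16511 and 550 counts on day 3 and 83, 111 and 142 counts on day 7. The early differentiation keratins Krt1 and Krt10 overlapped, with day 3 replicate 2 at 295 and 89.4 CPM. Of 20 basal keratinocyte genes 0 passed in edgeR, with 1 lower at an unadjusted p under 0.05 and 1 in DESeq2, and the median of -0.42 was 0.74 without day 3 replicate 2, whose summed level of 7812 CPM exceeded the 959 to 3682 CPM of the other 5 libraries. Without that library the median of the differentiation list was 2.97.

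Markers of other cell types gave no calls in most lists. The skeletal muscle list had a median of 2.18 with 0 of 18 called by edgeR or DESeq2 and 0 at an unadjusted p under 0.05, and -4.40 without day 7 replicate 1. Adipocyte genes had 0 of 18 called by edgeR or DESeq2 and 1 lower at an unadjusted p under 0.05, with summed levels of 1025, 3680 and 610 CPM on day 3 and 1878, 235 and 2155 CPM on day 7. T and NK cell genes (0 of 23), B and plasma cell genes (0 of 9), mast cell genes (0 of 11), dendritic cell genes (0 of 13) and erythrocyte genes (0 of 8) had no calls in edgeR. At an unadjusted p under 0.05 the T and NK list had 2 higher genes and the erythrocyte list 5 lower ones, the other 3 none (the erythrocyte median was -2.07, with 7 of 8 differences negative), and DESeq2 called 1 higher T and NK gene. T and NK cell genes summed to 20.7 to 89.9 CPM on day 3 and 26.7 to 87.7 CPM on day 7. Of 15 cartilage and bone genes 2 rose (13.3%, beside 1.74% of all genes), Spp1 and Matn3, matrilin 3. The latter went from below 0.14 CPM to 3.22, 1.62 and 1.17 CPM. The defining markers Col2a1 and Acan did not exceed 0.456 CPM in any of the 6 libraries.

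The other libraries were set beside the day 3 and day 7 control levels as a description, with genes and midpoints that come from this comparison. For each of the 652 genes the midpoint between the day 3 and day 7 control levels was taken, and each library was placed on either side. In the 3 control day 10 libraries, which are male like those of day 7 (Xist 0 to 9 counts), 92.2% to 95.2% of the 374 higher genes and 95.3% to 97.5% of the 278 lower genes lay on the day 7 side. In the 3 control day 0 libraries these shares were 25.7% to 30.5% and 61.9% to 70.1%. Female and male libraries can be set side by side on day 7 in the adalimumab arm, where replicate 3 is female by Xist (30365 counts) and Ddx3y (2 counts). In that library 85.6% of the higher and 90.3% of the lower genes lay on the day 7 side, beside 92.8% to 93.0% and 94.2% to 95.7% in its 2 male fellows. In the 3 female adalimumab day 3 libraries the shares were 11.2% to 22.7% and 20.1% to 60.1%.

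The adalimumab arm, whose libraries are all others, had 1401 genes called between the same days, 711 higher (3.3%) and 690 lower (3.2%). It shared 224 of the 374 higher and 68 of the 278 lower control genes, with 0 in opposite directions, which makes 44.8% of the control calls and 20.8% of the adalimumab calls. The sign was the same for 623 of the 652 control genes. All 34 genes called in every control fit were called in the adalimumab arm in the same direction. The day 3 libraries of that arm were also female (Xist 20168 to 33291 counts), its day 7 replicates 1 and 2 were male, and its column names follow the same naming series. Both contrasts come from the same fit, with a shared estimate of spread. Sex, cohort and day are thus mixed in this arm too, and what the shared calls owe to each was not tested. The 374 higher genes had a median log2 difference of 2.02 in control wounds and 1.47 under adalimumab, and the 278 lower genes of -1.04 and -0.51.

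The collagen list had 14 of 24 genes higher in each arm, with medians of 1.78 and 1.98. The mitosis list had medians of -1.21 in control wounds and -0.08 under adalimumab, the DNA replication list -1.17 and -0.26, and the glycolysis and hypoxia list 0.61 and -0.62. Single genes with unlike values were Vegfa (3.28 and -0.10), Mmp13 (3.69 and 0.82), Ppp1r3c (3.92 and -2.34) and Il6 (2.95 and -5.35). Adalimumab day 3 replicate 2 stood apart in that arm. Its summed level of inflammatory cytokine genes was 3409 CPM (237 and 480 in the others of that day). For glycolysis and hypoxia genes it was 9990 CPM (4249 and 3921). What the adalimumab values of Il6, Vegfa and the glycolysis and hypoxia list owe to this library was not tested. The interaction, which tests whether the change differs between the arms, passed for 0 of 21538 genes (0%) in edgeR, with 1999 at an unadjusted p under 0.05 (9.28%), and for 78 in DESeq2, among them Ppp1r3c and Il6. By edgeR the arms are not shown to differ for any gene named here.

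**Figure D5:**
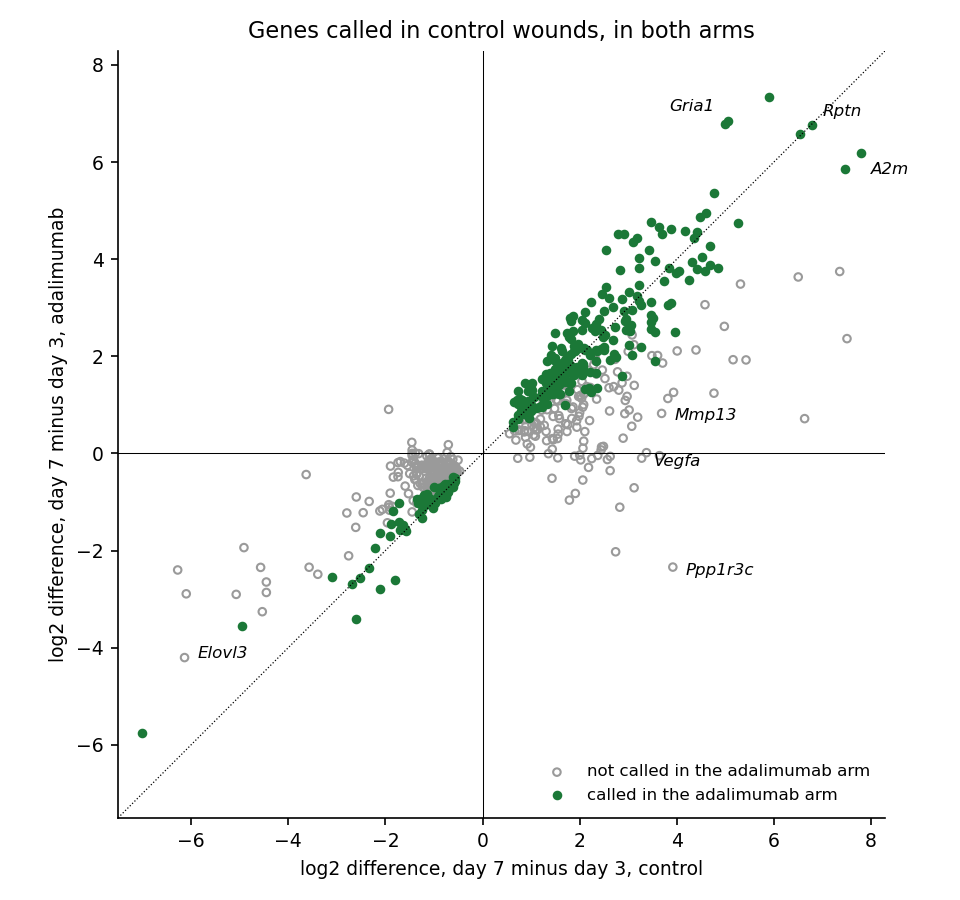
Each point is 1 of the 652 autosomal genes called in control wounds, with its log2 difference (day 7 minus day 3) in control wounds on the x axis and in adalimumab wounds on the y axis, in green where it was also called there. The dotted line marks equal differences, and 623 of the 652 points have the same sign in both arms.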

How the data were processed

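RNA of skin was read as single reads of 50 bases after preparation with a stranded total RNA kit, per the labels' protocols. The table the authors deposited holds raw counts per gene symbol. Per the submitters' processing notes, the tool STAR and the build GRCm39 were used. The way reads were assigned to genes, and with which annotation and strandedness, was not given in the sources used here.

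Deposited counts of all 23 libraries were fitted in edgeR 4.0.16 (R 4.3.3) with 8 group means, TMM scaling and filterByExpr (minimum count 10, minimum total 15). Day 7 was tested against day 3 by the quasi-likelihood test (15 residual degrees of freedom), with Benjamini-Hochberg adjustment over 23083 genes at 0.05. CPM are TMM-scaled, and the standard error is the log2 difference divided by the root of the F statistic. Symbols were placed on chromosomes through the GENCODE annotation and, for symbols absent there, RefSeq tables (50605 of 56379 matched). The test was checked on simulated data. Near-identical gene copies and overlapping genes are uncertain.

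The text names the 15 genes with the largest differences each way among called genes with mean log2 CPM of at least 1 and groups that do not overlap, up to 4 called members of each list, a set of single genes, and members of the lists described. The comparison and its lists were chosen with earlier results of these data known, and 12 of the lists were added after values were seen. Alternatives were RLE scaling, DESeq2 1.42.0, limma 3.58.1 (voom), other filters, fewer libraries, a replicate block and leaving out each library. No paired design was used: deviations of same-numbered libraries of the 2 days correlated by -0.09, -0.02 and 0.18.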

Additional observations from a re-analysis of the deposited data

How the results depend on the processing

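Beside 652 genes (374 higher, 278 lower), DESeq2 called 1872 (998 and 874), voom with library weights 3194 (1275 and 1919), edgeR without a count filter 360 (271 and 89), and edgeR on the 6 libraries alone 49 (43 and 6). With a replicate block these 6 libraries gave 2 genes (2 and 0). The replicate numbers do not pair the libraries. Leaving out 1 library gave 36 to 798 genes, 34 to 435 higher and 2 to 363 lower. RLE scaling gave 646 genes, a stricter filter 696, autosomal genes alone 630, and, chosen after seeing the data, 633 without mitochondrial genes and 653 without control day 3 replicate 2 and control day 7 replicate 1. All 652 genes were called in the same direction by DESeq2, 631 by voom and 612 with RLE scaling. The cause of these shifts was not tested.

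Of 1504 values of 94 named genes under 16 settings, 1049 kept direction and side of the threshold, 433 lost the call, 7 gained it and 15 changed sign, all 15 in genes without a call. These were Tnf (-0.09 without control day 3 replicate 1 or 3, -0.31 to 0.33 over the 6 fits that leave out 1 library), Il1b (-0.026 in voom, -0.95 to 1.23 over the 6 fits, lowest without control day 7 replicate 2), Cxcl2 (-0.10 to 1.46, lowest without the same), Arg1 (-0.14 to 1.03, lowest without control day 3 replicate 2 or 3, and -0.079 without both libraries that stand apart), Krt14 (-1.14 to 0.82, highest without control day 3 replicate 2, and 0.43 without both) and Pecam1 (-0.44 to 1.81, highest without control day 3 replicate 2). The interaction between arms called 0 genes in edgeR and voom and 78 in DESeq2 (75 and 3). The precision rests on 3 libraries a day with a biological coefficient of variation of 42.5%.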

Other observations

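Imprinted genes, which are expressed from 1 parental copy and are many of them active in fetal growth, were listed after values were seen. Of 28 tested 6 were higher on day 7 (21.4%, beside 1.74% of all genes) and 0 lower, which does not support a direction in a list so made. The median log2 difference was 0.92, with 25 positive differences. H19, a noncoding RNA, stood at 51.2, 68.2 and 95.0 CPM on day 3 and at 522, 267 and 289 CPM on day 7 (2.33 ± 0.50). Cdkn1c, an inhibitor of cyclin-dependent kinases, stood at 7.29, 10.9 and 21.2 CPM on day 3 and at 57.6, 32.9 and 75.1 CPM on day 7. All day 7 libraries lay above all day 3 libraries in both genes.

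In the Dlk1 and Meg3 cluster, Dlk1, a transmembrane ligand of the Notch family, was near 0 on day 3 (0.0878, 0.188 and 0.278 CPM) and stood at 7.63, 2.04 and 10.6 CPM on day 7. Meg3, a noncoding RNA, went from 133, 72.4 and 217 to 481, 946 and 798 CPM (2.40 ± 0.46), and the neighbouring Mirg and Rtl1 rose by 1.75 and 2.11. Transcripts of this cluster overlap, on opposite strands in part, and their reads may not be told apart without the strand setting. The list had 0 calls without control day 3 replicate 1, 2 without control day 7 replicate 2 and 3 without control day 7 replicate 3 or without both libraries that stand apart.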
